A study of Mus musculus with 6 samples.

Results

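Transcripts of 8 genes that make or handle reactive oxygen, nitric oxide and itaconate were followed in macrophages sorted from skin wounds of young and aged mice. The genes were Cybb, Cyba, Ncf1, Ncf4, Rac2, Nos2, Sod2 and Acod1, and they were taken by symbol from a count table of 15168 genes. All 8 were found once and all 8 were among the 11878 genes that passed the filter on low counts. Wild-type female C57BL/6J mice received 2 full-thickness wounds on the back, and live CD45+ CD11b+ CD64+ F4/80+ cells were sorted from the wounds on Day 3. RNA of 3 young samples (12 weeks by the labels) and 3 aged samples (24 months by the labels) was amplified from low input and sequenced, and each age had a sample labelled set A, B and C. The labels and methods do not say whether a sample is 1 mouse or several, so p-values measure the spread between these samples, which may be partly technical. By their labels the groups differed only in age, and per the study's methods all mice were wounded under isoflurane and given buprenorphine against pain.

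The phagocyte NADPH oxidase, NOX2, moves electrons from NADPH across a membrane onto oxygen and so makes superoxide. Its catalytic core sits in the membrane and is switched on when cytosolic subunits and a Rac GTPase join it. Inducible nitric oxide synthase makes nitric oxide from arginine with tetrahydrobiopterin as a cofactor. Mitochondrial superoxide dismutase turns superoxide into hydrogen peroxide, and aconitate decarboxylase makes itaconate from an intermediate of the citrate cycle. In macrophages Nos2, Sod2 and Acod1 are known as inducible genes of inflammatory activation. The oxidase subunits are part of the equipment of phagocytes, and whether they are less inducible than the other genes was not tested here.

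The deposited values were expected counts, that is, estimated reads per gene, with totals between 15270103 and 17927483 per sample, of which the 8 genes held 0.242% to 0.345%. CPM below are counts relative to the TMM-scaled library size, and 1 count was worth 0.0553 to 0.0701 CPM. The 4 genes of the sort (Ptprc, Itgam, Fcgr1 and Adgre1) were found in every sample. For 3 of the 4 the ages did not overlap, and 2 of these passed the test, while Fcgr1 did not (edgeR adjusted p = 0.520). Adgre1, which encodes F4/80, was lower in aged samples, with a log2 fold change of -0.69 (edgeR adjusted p = 0.0292), and Itgam, which encodes CD11b, was higher by 0.99 (edgeR adjusted p = 0.00735). The sort did not exclude Ly6G+ cells. The 14 neutrophil markers in the table summed to 717 to 1217 CPM in young and 926 to 1584 CPM in aged samples. Of the 13 tested, 4 passed as higher in aged samples and 0 as lower, against 9.73% and 7.97% of all tested genes. Their median log2 fold change was 0.38, and 11 of the 13 had a positive estimate. Ly6g, 1 of the listed markers, was between 6.14 and 10.9 CPM over the samples of both ages. The summed level of 8 monocyte markers was 1710 to 3494 CPM in young and 3657 to 4783 CPM in aged samples, and 1 of the 8 tested was higher. Keratinocyte markers summed to 126 CPM in aged B, against 0.719 to 2.03 CPM in the other samples, and fibroblast markers to 119 CPM in aged B, against 12.4 to 41.0 CPM elsewhere. Endothelial markers summed to 11.8 to 12.6 CPM in young and 25.9 to 31.1 CPM in aged samples, and of the 3 tested 1 was higher, Pecam1, which leukocytes also express. Mast cell markers summed to 18.4 to 67.3 CPM in young samples and to 51.4, 0.255 and 0.0618 CPM in aged A, B and C. Of the 4 mast cell markers tested 0 passed in edgeR, and 0 had an unadjusted p under 0.05. The 1 B cell marker tested, Cd79b, was lower in aged samples, and B cell markers summed to 4.62 to 12.9 CPM in young and 2.61 to 4.08 CPM in aged samples. The part of the sort markers and of these other cells in the results was not tested. In bulk RNA, fewer cells that express a gene and less of its RNA per cell cannot be told apart.

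Across the 8 genes, 3 rose with age and the oxidase subunits did not pass the test. Nos2, Sod2 and Acod1 passed at an adjusted p-value under 0.05 (quasi-likelihood test of edgeR, Benjamini-Hochberg adjustment across the 11878 genes), and all 3 were higher in aged samples. Of all tested genes 17.7% passed, 9.73% as higher and 7.97% as lower. Nos2 and Acod1 also exceeded 2-fold, as did 8.79% of all tested genes, 4.59% as higher and 4.2% as lower. The samples of the ages did not overlap for Nos2 and Sod2, and this held for 38.2% of all tested genes, 19.2% as higher and 19% as lower. The calls rest on few samples. Of the 8 genes, 0 passed without young C or without aged C, 1 passed without young B or without aged A, 2 without young A, and 3 without aged B. Acod1 also did not pass with the set letter as a block or with library totals in place of TMM.

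**Figure D1:**
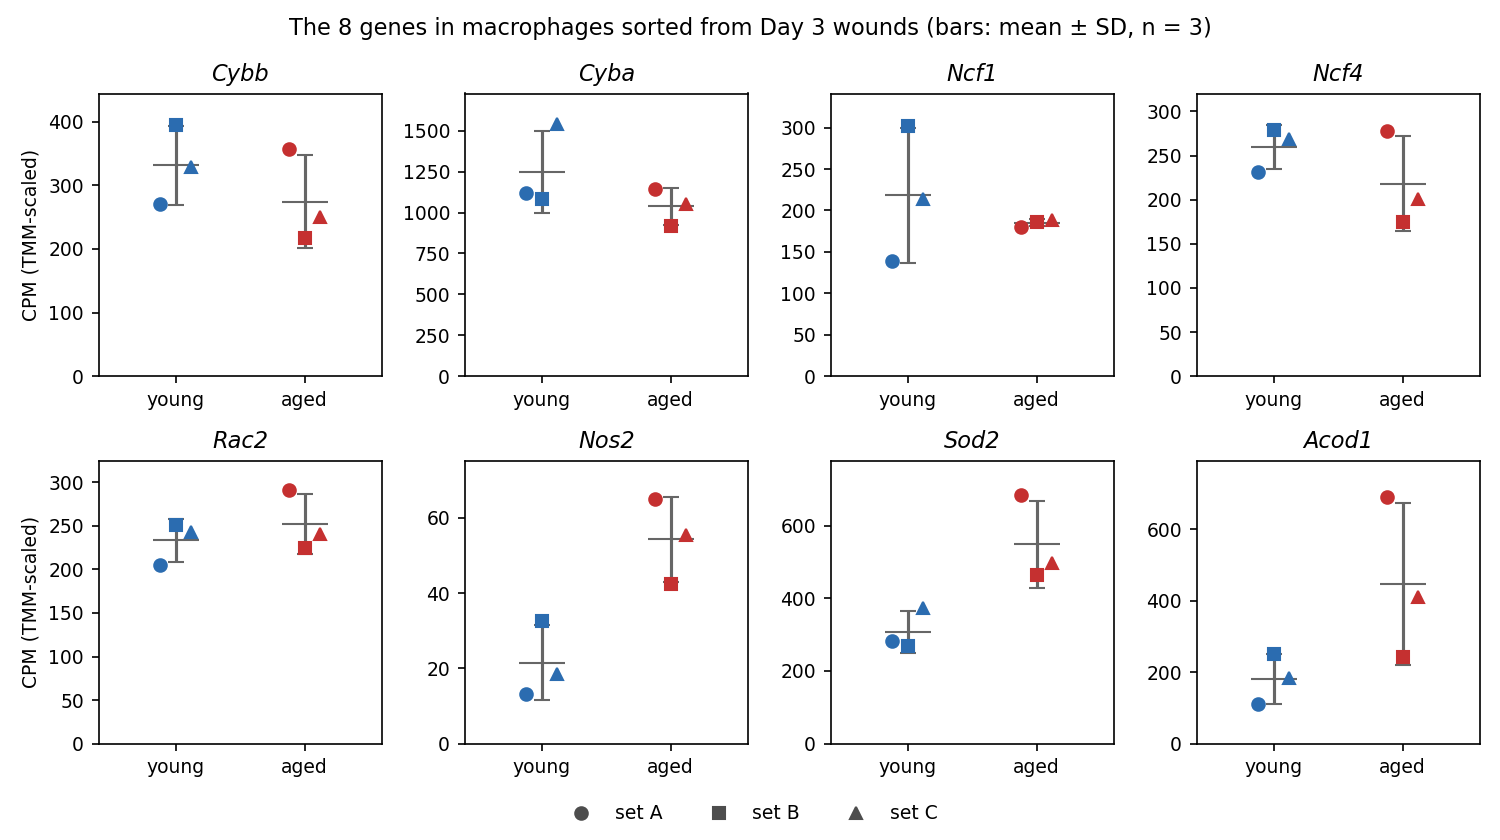
CPM of each of the 8 genes in every sample, with young samples in blue, aged samples in red, a symbol for each set letter, and the mean ± SD of 3 samples as bars. The aged samples of Nos2 lie between 42.4 and 64.9 CPM, all above the young samples, whereas the ages overlap for the 5 oxidase genes.

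Cybb encodes gp91phox, the catalytic subunit of NOX2, and lies on the minus strand of chrX:9435252-9487772 in the authors' mm10 annotation. It was measured at 270.0, 394 and 329 CPM in young A, B and C and at 358, 216 and 249.4 CPM in aged A, B and C. Aged A was above 2 of the 3 young samples, and the ages overlapped. The log2 fold change was -0.27 (standard error, SE, 0.22, 95% interval -0.76 to 0.22, adjusted p = 0.418 in the edgeR test), so that the interval holds both a fall and a smaller rise. Cyba encodes p22phox, the membrane partner that stabilises gp91phox, on the minus strand of chr8:122424776-122432931. It was the most abundant of the 8, at 1121, 1085 and 1540 CPM in young and 1143, 919 and 1051 CPM in aged A, B and C. Young C stood above the other 5 samples, which lay close together. The log2 fold change was -0.27 (SE 0.20, interval -0.70 to 0.17, edgeR adjusted p = 0.361), and it was -0.09 without young C. Cyba overlaps Galnt2l on the other strand, but that gene had 3895 counts in all against 109826 for Cyba.

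The cytosolic subunits likewise did not pass the test. Ncf1 encodes p47phox, which organises the cytosolic complex and is phosphorylated when the oxidase is switched on (chr5:134220053-134229626, minus strand). Its level was 139, 302 and 214 CPM in young and 180, 186 and 188 CPM in aged A, B and C. The young samples spread 2.17-fold from lowest to highest and enclosed all aged samples, which spread 1.05-fold. The log2 fold change was -0.24 (SE 0.25, interval -0.78 to 0.31, edgeR adjusted p = 0.527), and it changed sign to 0.08 without young B. Ncf4 encodes p40phox, which binds a lipid of the phagosome membrane (chr15:78244801-78262581, plus strand). It was at 231, 279 and 269 CPM in young and 278, 174 and 201 CPM in aged A, B and C, with aged B and C below all young samples and aged A beside the highest. The log2 fold change was -0.25 (SE 0.20, interval -0.70 to 0.19, edgeR adjusted p = 0.395). Rac2 encodes the Rac GTPase of blood cells that completes the oxidase (chr15:78559167-78572784, minus strand). It was at 206, 252 and 243 CPM in young and 291, 224 and 241 CPM in aged A, B and C. Its log2 fold change of 0.11 (SE 0.17, interval -0.27 to 0.49, edgeR adjusted p = 0.678) was the closest to 0 of the 8, and its sign turned to -0.07 with library totals and to -0.00053 without aged A.

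Within set A all 5 oxidase genes were higher in the aged than in the young sample, by 0.03 to 0.50 on the log2 scale, and within sets B and C all 5 were lower. For Cybb the differences in log2 CPM were 0.40, -0.86 and -0.40 in sets A, B and C. Ncf4 had 0.27, -0.68 and -0.42. The set letters are used here only as names, since the labels do not say what they mark. Not every pair of the same letter deviated together, and differences within a set are given only as a description. Of all pairs of samples of 1 age, the pairs with young A or aged A were the most unlike, with a chi-square of 96.8 to 123 per degree of freedom over genes, against 32.5 and 46.3 for the pairs of B with C. No pair differed by as little as sampling noise, and all 6 samples were counted as separate.

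The partners Rac1 and Cybc1 did not pass the edgeR test with all 6 samples. Rac1, the Rac GTPase of most cells, was at 684 to 777 CPM in young and 829 to 1094 CPM in aged samples. These did not overlap, but the change of 0.33 did not pass (edgeR adjusted p = 0.212). Cybc1 encodes Eros, the chaperone that gp91phox and p22phox need to mature. It was at 66.8, 80.7 and 98.2 CPM in young and at 68.2, 188 and 181 CPM in aged A, B and C. Aged B and C were thus well above all young samples and aged A was among them, and the log2 fold change was 0.83 (SE 0.33, edgeR adjusted p = 0.101). It passed in DESeq2 at 0.84 (adjusted p = 0.0433) and without aged A at 1.17 (adjusted p = 0.0111).

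Of 17 other tested genes of the oxidase, its chaperones and its regulators, 4 were higher, 2 were lower and 11 did not pass, and the median log2 fold change was 0.063 against -0.02 over all genes tested. As a background for this and the later lists, 9.73% of all tested genes passed as higher and 7.97% as lower. Here and in the lists that follow, genes other than the partners set by the naming rule and the extremes of a list were chosen after their values were seen, most of them because they passed. The 4 that rose are regulators. They were Vav3, an exchange factor for Rac (0.96), Prkcd, a protein kinase C (0.94), Pak2, a kinase bound by Rac (0.84), and Tiam1, another exchange factor (0.73). Hvcn1, the proton channel that balances the charge moved by NOX2, fell from 30.5, 47.6 and 35.7 CPM to 27.0, 20.0 and 15.5 CPM in sets A, B and C, with a log2 fold change of -0.87 (SE 0.24, edgeR adjusted p = 0.0346). Pak1, which is related to Pak2, fell by 0.77 on the log2 scale. Without young C neither the rises nor the falls of this list passed, with 0 of 17 in each direction. Without aged C, 1 passed as higher and 0 as lower, and 0 passed as lower without young B. Of 9 genes of other NADPH oxidases, Noxo1 alone was in the table, at up to 0.330 CPM, and it was below the filter.

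**Figure D2:**
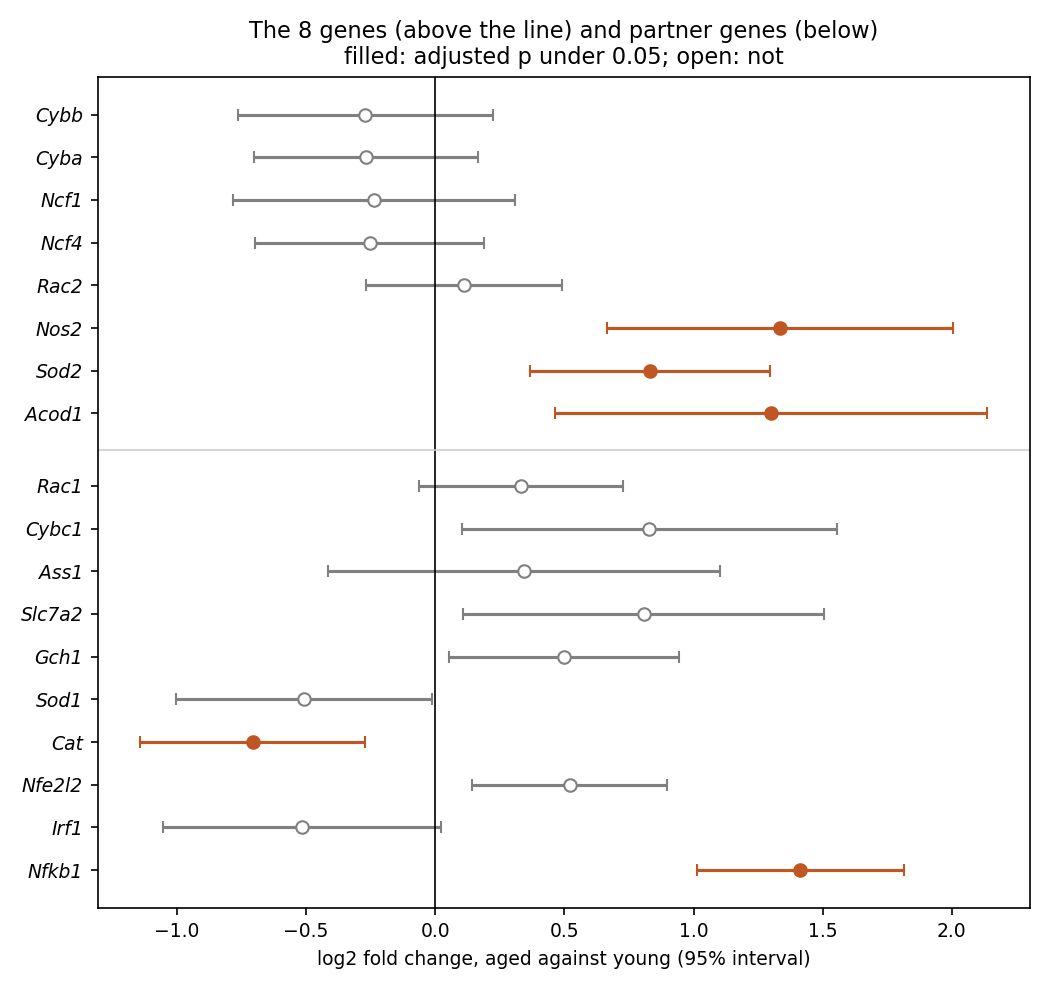
Log2 fold change of aged against young samples for the 8 genes and 10 partner genes, with points at the edgeR estimate and lines for the 95% interval, filled where the adjusted p-value was under 0.05. The intervals of the 5 oxidase genes all hold 0, while those of Nos2, Sod2 and Acod1 start at 0.67, 0.37 and 0.46.

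Nos2 encodes inducible nitric oxide synthase, the enzyme behind the bursts of nitric oxide made by activated mouse macrophages (chr11:78920787-78960255, plus strand). It was at 13.3, 32.6 and 18.6 CPM in young A, B and C and at 64.9, 42.4 and 55.4 CPM in aged A, B and C. The lowest aged sample was above the highest young sample, although young B and aged B were close. Nos2 rose 2.52-fold, a log2 fold change of 1.33 (SE 0.30, interval 0.67 to 2.00, edgeR adjusted p = 0.0186). When each sample was left out in turn the log2 fold change was 1.08 to 1.78, and it did not pass without young C (adjusted p = 0.0936) or without aged C (adjusted p = 0.0601). Within sets A, B and C the differences in log2 CPM were 2.28, 0.38 and 1.57.

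Of 10 other tested genes of nitric oxide and arginine metabolism described here, 1 was higher, 1 was lower and 8 did not pass, with a median of 0.077. Odc1, which turns ornithine into the polyamine putrescine, was the highest, at 858, 387 and 582 CPM in young and 1340, 1371 and 1263 CPM in aged A, B and C. The ages did not overlap, and the log2 fold change was 1.12 (SE 0.26, edgeR adjusted p = 0.0202). Nostrin, which is known to bind the endothelial nitric oxide synthase, was the lowest and fell by 1.06. Ass1, which helps to rebuild arginine from citrulline, was at 2.41 to 6.02 CPM in the 6 samples and did not pass (0.34, adjusted p = 0.507). Slc7a2, an importer of arginine, was at 4.63 to 9.68 CPM in young and 8.34 to 13.7 CPM in aged samples (0.81, adjusted p = 0.0980), and it passed in limma-voom at 1.01 (adjusted p = 0.0184) and without young A at 1.20 (adjusted p = 0.0176). Of the other synthases, Nos3 was below 1 CPM in every sample and Nos1 was not in the table. In this list 0 were higher and 0 lower without young B, without young C or without aged C, 1 was higher and 0 lower without aged B, and 3 were higher and 1 lower without young A. In limma-voom 2 were higher and 1 lower.

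The genes for the cofactor of nitric oxide synthase were examined beside Nos2. Gch1, which encodes the first enzyme of tetrahydrobiopterin synthesis, was at 108 to 155 CPM in young and 149 to 220.1 CPM in aged samples and did not pass (log2 fold change 0.50, SE 0.20, edgeR adjusted p = 0.107). Of the 6 tested genes of this cofactor, 0 were higher and 3 were lower in the edgeR test, with a median of -0.81. At an unadjusted p under 0.05 there were 1 higher and 4 lower, and DESeq2 and limma-voom called 0 higher as well. Of all genes tested, 9.73% passed as higher and 7.97% as lower in the edgeR test. With 6 genes, the count of 0 higher is therefore not read as a result about the cofactor. Spr, the last enzyme of the synthesis, fell from 29.1 to 35.3 CPM in young to 13.8 to 19.8 CPM in aged samples (log2 fold change -0.94, edgeR adjusted p = 0.0136). Qdpr, which regenerates the cofactor, fell from 63.6 to 68.4 CPM in young to 28.2 to 33.8 CPM in aged samples (-1.10, adjusted p = 0.00379). Pcbd2, which belongs to the same recycling step, was the lowest at -1.18 (adjusted p = 0.0131). Without young C or without aged C, 1 of the 6 passed as lower.

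**Figure D3:**
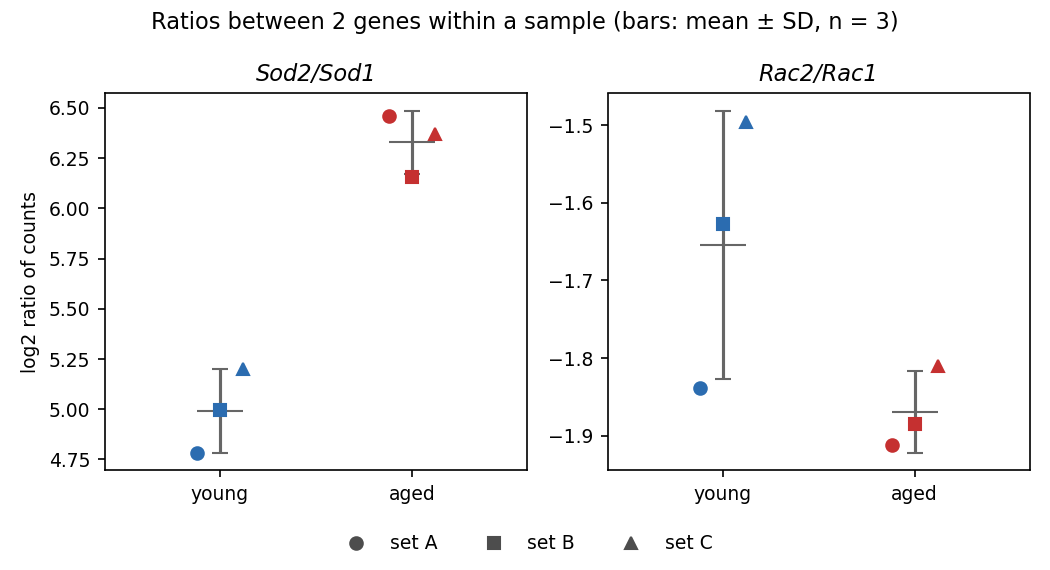
Log2 ratio of the counts of 2 genes within each sample for Sod2 to Sod1 and Rac2 to Rac1, with a symbol for each set letter and the mean ± SD of 3 samples as bars, on axes that do not start at 0. The ages do not overlap for the ratio of Sod2 to Sod1, and they overlap for that of Rac2 to Rac1.

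Sod2 encodes the manganese superoxide dismutase of mitochondria (chr17:13006846-13040064, plus strand). It was at 282, 268 and 374 CPM in young and 685, 463 and 496 CPM in aged A, B and C. The ages did not overlap, and aged A stood apart from aged B and C. Sod2 rose 1.78-fold, a log2 fold change of 0.83 (SE 0.21, interval 0.37 to 1.30, edgeR adjusted p = 0.0258). It kept its direction when each of the 6 samples was left out in turn, at 0.643 to 0.997. It did not pass in 4 of these fits, with an adjusted p of 0.0638 without aged A, 0.0642 without aged C, 0.0927 without young B and 0.0637 without young C. The differences in log2 CPM within sets A, B and C were 1.28, 0.79 and 0.41.

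Sod1, the cytosolic dismutase, went the other way in its estimate, at 10.2, 8.39 and 10.2 CPM in young and 7.78, 6.50 and 5.99 CPM in aged A, B and C. These samples did not overlap, but the log2 fold change of -0.51 (SE 0.22) did not pass (edgeR adjusted p = 0.136), although limma-voom gave -0.61 (adjusted p = 0.0430). Sod1 overlaps Scaf4 on the other strand, and the 6 samples together held 791 counts of Sod1 and 1450 of Scaf4. This level is low for a gene that most cells use, and whether the counting missed reads of Sod1 was not tested. The ratio of 2 genes within a sample does not depend on library scaling. Sod2 counts per Sod1 count were 27.5, 31.9 and 36.8 in young and 88.1, 71.3 and 82.8 in aged A, B and C. The lowest aged ratio was well above the highest young ratio. The mean log2 ratio went from 4.99 ± 0.21 (SD, n = 3) to 6.33 ± 0.16, a difference of 1.34 or 2.53-fold, with p = 0.1 in a two-sided exact permutation test, which is the smallest p that 3 against 3 samples allow. The low level of Sod1, and any reads it lost in counting, enter every one of these ratios, so their size is uncertain. In the same test with n = 3 per age, the log2 ratio of Rac2 to Rac1 differed by -0.22 (exact p = 0.2) and overlapped between the ages. Benjamini-Hochberg adjustment over the 4 ratios computed, of which the other two are not reported here, gave 0.2 for Sod2 to Sod1 and 0.267 for Rac2 to Rac1, and neither could pass 0.05.

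Of 26 other tested genes that remove superoxide and peroxide, 5 were higher, 4 were lower and 17 did not pass, with a median of -0.42. The split depended on the fit, with 6 higher and 6 lower in DESeq2, 5 and 11 in limma-voom, 3 and 8 with library totals, and 6 and 11 at an unadjusted p under 0.05. The genes that rose were Txnrd1, the cytosolic thioredoxin reductase (1.30), Srxn1, which repairs peroxiredoxins (1.23), Glrx, a glutaredoxin (0.85), Sesn2, a sestrin (0.74), and Prdx6, a peroxiredoxin (0.72). Txnrd1 was at 287, 136 and 172 CPM in young and 551, 416 and 501 CPM in aged A, B and C. Cat, which encodes catalase and removes hydrogen peroxide, fell from 44.6, 71.2 and 51.9 CPM to 37.4, 31.7 and 33.7 CPM (log2 fold change -0.71, SE 0.20, edgeR adjusted p = 0.0353), although of the 6 fits without 1 sample it passed only in the one without young A. With the set letter as a block it did not pass (-0.68, adjusted p = 0.0516). Gpx1, an abundant glutathione peroxidase, fell by 0.69, and Prdx4, the peroxiredoxin of the endoplasmic reticulum, by 0.76. Sesn1, another sestrin, was the lowest and fell by 1.80. Sod3, the secreted dismutase, had the highest estimate of 1.41 and did not pass (adjusted p = 0.0910). Its highest sample was aged B at 10.2 CPM, the sample with the fibroblast and keratinocyte transcripts, and the other samples were at 1.58 to 3.09 CPM. Without young C, 0 of the 26 passed in either direction, and without aged C 1 was higher and 0 were lower. The 2 directions gave 2 and 1 genes without young B, 3 and 2 without aged A, and 5 and 1 without aged B.

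Acod1 encodes aconitate decarboxylase, formerly Irg1, which makes itaconate in activated macrophages (chr14:103046977-103056574, plus strand). It was at 109.9, 252 and 183 CPM in young and 691, 241 and 410 CPM in aged A, B and C. Aged A and C were above all young samples, and aged B lay just below young B, so the ages overlapped. Its spread was the widest of the 8 within aged samples, 2.86-fold from lowest to highest. Acod1 rose 2.46-fold, a log2 fold change of 1.30 (SE 0.38, interval 0.46 to 2.14, edgeR adjusted p = 0.0399). It did not pass with the set letter as a block (1.24, edgeR adjusted p = 0.0852) or with library totals in place of TMM (1.12, edgeR adjusted p = 0.0585). With each sample left out in turn it passed in 1 of 6 fits, the one without aged B, where it was 1.61 (adjusted p = 0.0142). In the other 5 the log2 fold change was 0.85 to 1.62 and the adjusted p was 0.0577 without young B, 0.0740 without young A, 0.0912 without aged C, 0.114 without aged A and 0.136 without young C. The differences in log2 CPM within sets A, B and C were 2.65, -0.06 and 1.16.

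The enzymes of the citrate cycle were examined beside Acod1. Of 22 tested genes of the cycle and its carriers, 0 were higher, 3 were lower and 19 did not pass in the edgeR test, with a median of -0.28 against -0.02 for all genes. At an unadjusted p under 0.05 there were 1 higher and 6 lower, while DESeq2 gave 0 higher and 5 lower and limma-voom 1 and 7. Of all genes tested, 9.73% passed as higher and 7.97% as lower in the edgeR test. With 22 genes, the count of 0 higher is therefore not read as a result about the cycle. Idh2, the mitochondrial isocitrate dehydrogenase that makes NADPH, was the lowest, from 110, 135 and 117 CPM in young to 49.4, 72.2 and 48.4 CPM in aged A, B and C, a log2 fold change of -1.09 (SE 0.19, edgeR adjusted p = 0.00853). Fh1, fumarase, fell by 0.98 and Idh3b, a subunit of the NAD-linked isocitrate dehydrogenase, by 0.57. The highest of the cycle genes was Ogdh, a subunit of the oxoglutarate dehydrogenase complex, at 0.43 (adjusted p = 0.0693). Without young C, 0 of the 22 passed, and without aged C 1 passed as lower. The counts of lower genes were 2 without young B, without aged A or without aged B, and 4 without young A.

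**Figure D4:**
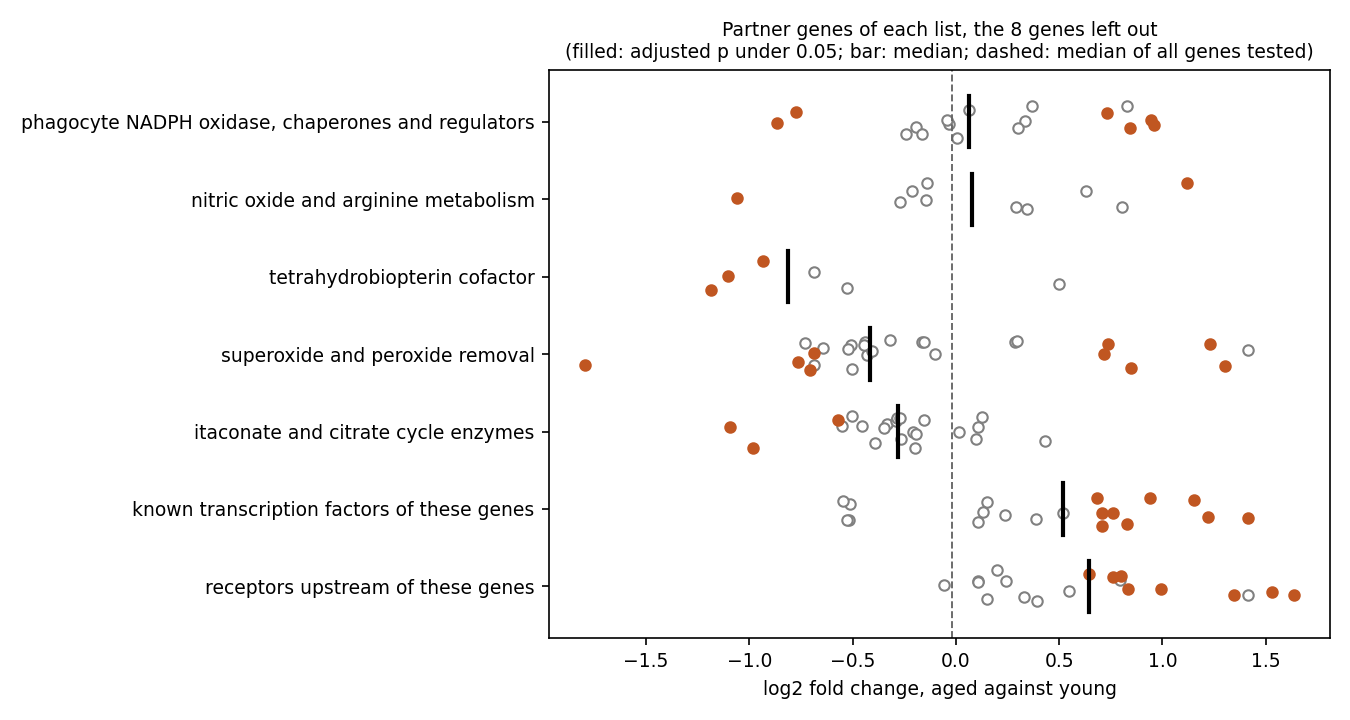
Log2 fold change of aged against young samples for each tested gene of 7 lists with the 8 genes left out, filled where the edgeR adjusted p-value was under 0.05, with the list median as a bar and the median of all tested genes as a dashed line. Points of the transcription factor and receptor lists lie mostly to the right of the dashed line, and those of the tetrahydrobiopterin and citrate cycle lists mostly to the left.

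The transcription factors and receptors known to act on these genes were examined next. Of the 19 factors described here, all tested, 9 were higher, 0 were lower and 10 did not pass in the edgeR test, with a median of 0.52. At an unadjusted p under 0.05 there were 10 higher and 1 lower, while DESeq2 gave 10 higher and 0 lower and limma-voom 10 and 1. Nfkb1, which encodes the p50 subunit of NF-κB, was the highest, from 24.1, 19.9 and 19.2 CPM in young to 53.3, 49.2 and 65.7 CPM in aged A, B and C, a log2 fold change of 1.41 (SE 0.18, edgeR adjusted p = 0.00242). Nfkb2, Rela and Relb, other NF-κB subunits, rose by 1.15, 0.94 and 0.83. Hif1a, the oxygen-sensitive factor that acts on Nos2, rose by 1.22. Pparg, a lipid-sensing nuclear receptor, was the lowest of the 19, at 8.57 to 16.9 CPM in young and 5.46 to 12.97 CPM in aged samples, and did not pass (-0.55, adjusted p = 0.283). Irf1, an interferon factor that acts on Nos2, was at 46.9, 89.8 and 83.2 CPM in young and 61.4, 47.1 and 45.2 CPM in aged A, B and C and did not pass (-0.52, adjusted p = 0.161). It passed as lower in limma-voom at -0.65 (adjusted p = 0.0322) and without young A at -0.75 (adjusted p = 0.0193). Nfe2l2, which encodes the antioxidant factor NRF2, was at 319.8 to 375 CPM in young and 420.2 to 539 CPM in aged samples, and the change of 0.52 missed the threshold (adjusted p = 0.0588). It passed in DESeq2 at 0.53 (adjusted p = 0.0201), in limma-voom at 0.56 (adjusted p = 0.0127) and without aged A at 0.63 (adjusted p = 0.0485). Spi1, which encodes PU.1 and acts on the oxidase genes, differed by 0.15 (adjusted p = 0.555) and was named after its values were seen. The 9 rises became 2 without young C, 5 without aged C and 6 without young B.

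Of 19 receptors upstream, all tested, 8 were higher, 0 were lower and 11 did not pass in the edgeR test, with a median of 0.64. At an unadjusted p under 0.05 there were 11 higher and 0 lower, as in DESeq2 and limma-voom. The highest was Tnfrsf1b, TNF receptor 2, from 244 to 279 CPM in young to 709 to 867 CPM in aged samples (log2 fold change 1.64, edgeR adjusted p = 0.00127). Tlr4, the receptor of bacterial lipopolysaccharide, rose by 1.53 (adjusted p = 0.00202). Of the interferon gamma receptor, Ifngr2 rose by 0.83 and Ifngr1 did not pass at 0.11 (adjusted p = 0.734). The lowest was Tlr9 at -0.06, a gene below 1 CPM in every sample. The 8 rises became 3 without young C or without aged C and 4 without young B.

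The sequence before the start of 5 of the 8 genes was read from RefSeq on GRCm38.p6, the build of these files. No window was available for Ncf4, Rac2 or Nos2. The 3 shown are those of Acod1 and Sod2, which rose, and of Cybb, the catalytic oxidase gene that did not pass. Each is the 250 bases before the RefSeq start, written 5′ to 3′ on the strand of the gene, and capitals mark every match to any of 9 motifs searched on both strands.
Acod1, chr14:103046762-103047011, plus strand: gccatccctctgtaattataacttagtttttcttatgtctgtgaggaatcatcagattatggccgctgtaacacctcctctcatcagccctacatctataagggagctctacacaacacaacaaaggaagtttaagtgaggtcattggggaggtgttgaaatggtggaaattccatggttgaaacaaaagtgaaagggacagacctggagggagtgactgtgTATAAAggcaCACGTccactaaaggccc
Sod2, chr17:13007589-13007838, plus strand: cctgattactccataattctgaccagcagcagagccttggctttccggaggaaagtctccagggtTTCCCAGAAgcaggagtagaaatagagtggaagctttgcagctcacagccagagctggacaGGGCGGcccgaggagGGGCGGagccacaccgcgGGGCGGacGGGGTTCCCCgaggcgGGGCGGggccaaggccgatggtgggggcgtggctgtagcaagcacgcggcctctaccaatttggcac
Cybb, chrX:9469325-9469574, minus strand: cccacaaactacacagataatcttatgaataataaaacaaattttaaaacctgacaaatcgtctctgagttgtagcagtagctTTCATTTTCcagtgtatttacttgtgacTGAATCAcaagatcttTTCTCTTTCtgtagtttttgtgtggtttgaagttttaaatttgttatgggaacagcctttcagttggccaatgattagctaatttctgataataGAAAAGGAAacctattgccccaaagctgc

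The windows differ in base composition and in the motifs they hold. The Acod1 window has a GC content of 44.4% and holds a TATA match that begins 28 bases before the start and a hypoxia core 18 bases before it. The Sod2 window has a GC content of 63.6% and holds a match to the NF-κB consensus 83 bases before the start, a GAS match at 185 bases and 4 GC boxes. The Cybb window has a GC content of 34% and holds 3 ISRE cores at 167, 123 and 29 bases and an AP-1 match at 139 bases. The Cybb and Sod2 windows lie inside the longer genes of the authors' annotation, and the Acod1 window overlaps the annotated start of its gene. The share of 32851 windows of the same length that held each motif gives a background. The NF-κB consensus, spelled GGRRNNYYCC, was found in 9.55% of them and GAS, spelled TTCNNNGAA, in 7.02%. In these spellings R is A or G, Y is C or T and N is any base. The ISRE core, spelled GAAANNGAA, was found in 7.13% and AP-1, spelled TGANTCA, in 6.75%. The hypoxia core, spelled ACGTG, was found in 16.6% and the TATA match, spelled TATAAA, in 12.4%. The GC box, spelled GGGCGG, was found in 32.7%. A PU.1 core, spelled GAGGAAG, was in 10.6% of windows and an NRF2 core, spelled TGACNNNGC, in 10.2%. Neither spelling had a match in the 5 windows read. Other or shorter spellings of any of the motifs were not searched, so a window without a match may still hold a related sequence. The Ncf1 window held GAS and ISRE matches that overlap and 1 GC box, and the Cyba window 2 GC boxes. A match describes the letters of the window and not a bound site.

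Levels of different genes can be compared only per length, so CPM were divided by the merged exon length of each gene in GENCODE. Cyba had the highest level of the 8, 1202 ± 243 CPM per kb (SD, n = 3) in young and 999 ± 109 in aged samples, and Nos2 the lowest, 4.87 ± 2.26 in young and 12.3 ± 2.56 in aged samples. In young samples Ncf4 came next after Cyba, at 129 ± 12.5 CPM per kb, followed by Rac2, Acod1, Ncf1 and Cybb, each of which overlapped its neighbour in this order, and then by Sod2 at 30.7 ± 5.78. In aged samples Acod1 came next after Cyba, at 170.5 ± 86.5 CPM per kb, and overlapped Ncf4, which overlapped Rac2. Sod2 followed at 54.8 ± 12.0 and overlapped Ncf1, which overlapped Cybb. Among 11682 genes with a length, Nos2 moved from rank 4736 in young to 2815 in aged samples, Acod1 from 754 to 364 and Sod2 from 1490 to 954. The order between the ends depends on the length used. By coding length alone Sod2, whose merged exons are far longer than its coding sequence, was the next after Cyba in both ages, at 462 and 823 CPM per coding kb, while Cyba stayed highest and Nos2 lowest.

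For Cybb, Nos2 and Acod1 the tested genes with the most similar pattern were sought by Pearson's r of log2 CPM over the 6 samples, among 6587 candidates of at least 10 CPM on average. The closest to Cybb were Aldh16a1 (r = 0.996), Rftn1 (0.989) and Msra (0.986). The closest to Nos2 were Atg9a (r = 0.997), Il23a (0.994) and Hsd11b1 (0.992). The closest to Acod1 were Tspan31 (r = 0.997), Igsf6 (0.992) and Actr3 (0.990). There were 24, 47 and 35 genes with r over 0.95 for Cybb, Nos2 and Acod1. All points share the same 6 libraries, so these values are a description of the pattern over those libraries.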

How the data were processed

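The members and the gene lists were chosen with earlier results of these data known. Per the labels and methods, the authors aligned paired-end reads with STAR 2.7.3a to mm10 and quantified Ensembl 102 transcripts in Partek Flow; they deposited expected counts per gene, not normalised, for genes whose 6 samples summed to 10 or more. Strand use is not stated. The authors' table of their own DESeq2 comparison (fold changes and p-values) was not used here. The planned design named raw counts; the expected counts were therefore rounded to whole numbers first.

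Counts were tested in R 4.3.3 with edgeR 4.0.16 (TMM, filterByExpr by age, quasi-likelihood test, 3 aged and 3 young samples, Benjamini-Hochberg adjustment over 11878 genes). A gene passed at an adjusted p-value under 0.05. Ratios of CPM per sample were compared by exact permutation. Log2 CPM used a prior count of 2. Alternatives were DESeq2 1.42.0, limma-voom (limma 3.58.1) with quality weights, DESeq2 size factors, library totals, no filter, at least 10 counts in every sample, a block on the set letter, and omission of 1 sample at a time; applying them to partner genes and lists was added after seeing the data. Lengths came from GENCODE M21 and matched 98.3% of tested genes; promoters came from RefSeq. Named genes were the 8 members, 10 partners, the highest and lowest gene of each list and the 3 most similar genes of Cybb, Nos2 and Acod1; other genes, most of them genes that passed in a list or cell markers, were named after their values were seen. Some genes and ratios of the planned lists are not reported here and were left out of the list counts. Python 3.11.15 drew the plots.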

Additional observations from a re-analysis of the deposited data

How the results depend on the processing

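Over 7 other settings, Nos2 and Sod2 passed in 7 and Acod1 in 5. With library totals in place of TMM, which moved the median log2 fold change of all genes from -0.02 to -0.20, Acod1 was 1.12 (adjusted p = 0.0585), Rac2 turned to -0.066, and 2 of the 8 genes passed. With the set letter as a replicate block Acod1 was 1.24 (adjusted p = 0.0852), 2 of the 8 passed and 1056 genes were called against 1044. The deviations of samples of the same letter had correlations of 0.18, -0.02 and 0.11 in sets A, B and C. Pairs of unlike letters ranged from -0.22 (young C with aged A) to 0.14 (young C with aged B). So few and so small values cannot decide whether the letters mark pairs, and the main fit had no block, as planned. Apart from Acod1, the block changed no call among the 8 genes, and of the partner genes only Cat lost its call.

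Leaving out 1 sample at a time gave 213 to 1503 genes called at over 2-fold and 0 to 3 of the 8 genes passing. The log2 fold change was 1.08 to 1.78 for Nos2, 0.643 to 0.997 for Sod2, 0.85 to 1.62 for Acod1, -0.00053 to 0.20 for Rac2, -0.48 to 0.08 for Ncf1, -0.50 to -0.11 for Cybb, -0.35 to -0.09 for Cyba and -0.47 to -0.10 for Ncf4. Ncf1 turned to 0.078 without young B and Rac2 to -0.00053 without aged A; the cause of each change was not tested, other than that a fit without a sample has fewer samples. The lowest value of the 8 genes was 13.3 CPM, where 1 count was worth 0.0553 to 0.0701 CPM, and whether depth limited their calls was not tested.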
